A study of Mus musculus with 48 samples.

Results

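Gene expression in the gastrocnemius, the large calf muscle, was compared between mice killed 9 days after Roux-en-Y gastric bypass (RYGB) and mice killed 9 days after sham surgery. The libraries were chosen by tissue label, which gave 4 RYGB and 4 sham libraries of the 48 libraries in the series. All mice were male C57Bl6 mice made obese on a high fat diet, and both groups received a liquid elemental diet after the operation and were fasted overnight before the tissue was taken. RYGB leaves a small gastric pouch that empties directly into the jejunum, and most of the stomach and the duodenum are excluded from the flow of food. A sham operation leaves the route of food as it was. Matching of the sham mice in weight or food intake is not mentioned in the labels. The labels also do not say which part of the gastrocnemius was sampled, or that each numbered library came from a separate mouse, so the p-values below measure the spread between these libraries.

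Skeletal muscle is a mixture of fibers that differ in their contractile proteins. Slow (type I) fibers carry the myosin heavy chain encoded by Myh7, hold many mitochondria and burn fatty acids, whereas fast fibers carry the chains encoded by Myh2 (type IIa), Myh1 (type IIx) or Myh4 (type IIb), and type IIb fibers rely most on glycolysis. The mouse gastrocnemius is mostly fast, and its slow and IIa fibers are concentrated in a deep region. In bulk RNA, a different number of fibers of a type and a different amount of RNA per fiber cannot be told apart, and this applies to every gene below.

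The deposited values are CPM, read counts scaled to the total of each library, rounded to 0.1, for 12016 genes. They summed to between 997761 and 998777 in the 8 libraries, and the total counts behind them are unknown. The correlation of log2 values over genes ranged from 0.978 to 0.992 among the RYGB libraries, from 0.971 to 0.990 among the sham libraries and from 0.960 to 0.989 between the groups. Sham replicate 3 stood apart on the second principal component, which held 24.8% of the variance. It also had the highest level of adipocyte markers, the 12 measured members summing to 1647 CPM against 273 to 386 CPM in the other sham libraries and 386 to 739 CPM in the RYGB libraries. RYGB replicates 1 and 2 and sham replicates 1 and 2 were sequenced in lane 2, whereas RYGB replicates 3 and 4 came from lane 4 and sham replicates 3 and 4 from lane 3, so for the latter the lane cannot be told apart from the operation and only lane 2 gives a within-lane comparison. The defining markers of skeletal muscle were abundant in every library. Ckm, muscle creatine kinase, ranged from 15905 to 22691 CPM in the RYGB group and from 19250 to 22760 CPM in the sham group, and Acta1, skeletal muscle actin, from 28167 to 30862 CPM and from 27016 to 34336 CPM.

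The groups were compared on log2(CPM + 1) with limma over the 11966 genes that averaged 1 CPM or more, and a gene was called with a Benjamini-Hochberg adjusted p-value under 0.05 and a fold change of at least 1.5. No gene was called (0%). The lowest adjusted p-value was 0.0547, shared by 5 genes. At an unadjusted p-value under 0.05 there were 1200 genes higher in the RYGB group (10.0%) and 546 lower (4.56%), and the groups did not overlap in 571 genes with the RYGB libraries above (4.77%) and in 314 genes with them below (2.62%). With the libraries rescaled by median ratios, which moved the median log2 difference of all genes from 0.05 to -0.00444, 935 of 1768 genes at an unadjusted p-value under 0.05 were higher. The call depended on single libraries, since 210 genes were called without RYGB replicate 4, 57 without sham replicate 3, 206 within lane 2 alone, 427 when libraries were weighted by their quality, and 0 with lane as a covariate. Lanes 3 and 4 each held 1 group, so with lane as a covariate the difference between groups came from lane 2 alone. The number of all genes higher at an unadjusted p-value under 0.05 also moved with the setting. It was 2282 of 11928 without sham replicate 3 and 1564 of 11977 without RYGB replicate 4. Dropping each other library gave 774 to 932. Within lane 2 alone it was 2489 of 11912, and with lane as a covariate 1134 of 11966. Counts of list members under those settings are to be read beside these numbers. Below, higher and lower describe measured levels and not called changes, and a member whose groups did not overlap is described as separate.

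The slow fiber genes were higher in the RYGB group. Of 18 slow contractile genes, all had a higher mean in the RYGB group, 16 had an unadjusted p-value under 0.05 and 15 were separate, against 10.0% and 4.77% of all genes tested, and none was lower by either measure. Their median log2 difference was 2.47, against 0.05 over all genes tested, and their summed level ranged from 2866 to 12990 CPM in the RYGB group and from 811 to 3290 CPM in the sham group. The median was 2.28 within lane 2 and 2.54 in the other lanes, with all 18 higher in both. Of all 11966 genes tested, 8586 were higher within lane 2 and 5603 in the other lanes.

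Myh7, the slow myosin heavy chain, is on chromosome 14 (GRCm38 chr14:54970684-54994626, minus strand). Its level was 758, 668, 1785 and 248 CPM in RYGB replicates 1 to 4 and 163, 43.8, 1.1 and 2.4 CPM in sham replicates 1 to 4, a log2 difference of 5.51 ± 1.27 (SE, n = 4 and 4, limma adjusted p = 0.116). The groups did not overlap, but the sham libraries themselves ranged from 163 CPM to close to 1 CPM. The partners of this myosin showed the same order of libraries. Tnni1, the slow isoform of the inhibitory troponin subunit, was at 126, 113, 382 and 51.1 CPM in the RYGB group and at 38.7, 11.1, 1.1 and 1.5 CPM in the sham group (log2 difference 4.20). Tnnt1, the slow troponin T, was at 246, 195, 491 and 71.8 CPM in the RYGB group and at 68.9, 15.9, 2.7 and 2.9 CPM in the sham group (4.16). Tnnc1, the troponin C of slow and cardiac muscle, had a log2 difference of 4.26, and the slow myosin light chains Myl3 and Myl2 had log2 differences of 3.65 and 3.30. All of these were separate, with the lowest RYGB library, replicate 4, above the highest sham library, replicate 1.

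Atp2a2, the calcium pump that refills the stores of slow fibers, was at 703, 575, 1718 and 296 CPM in the RYGB group and at 235, 89.3, 63.9 and 55.6 CPM in the sham group (log2 difference 2.84). Casq2, the calcium-binding protein of the same stores, and Pln, which inhibits the pump, differed by 1.99 and 0.82. Members of the Z-disc, where actin filaments are anchored, differed with less spread. Myoz2, a calcineurin-binding protein of the slow Z-disc, was at 138, 148, 254 and 61.0 CPM in the RYGB group and at 31.1, 15.4, 30.4 and 12.6 CPM in the sham group, a log2 difference of 2.63 ± 0.42 (SE, limma adjusted p = 0.0875). Actn2, the alpha-actinin of all fibers, was at 1123, 1234, 2207 and 740 CPM against 270, 266, 530 and 247 CPM (log2 difference 1.98, limma adjusted p = 0.0935). It is counted in the slow list although it is not particular to slow fibers. The stretch-responsive Ankrd2 and Csrp3 differed by 2.31 and 1.28. Only 3 members overlapped between the groups, namely Mybpc1, Sln and Myl6b, with log2 differences of 1.56, 0.65 and 0.20.

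The libraries of a group differed among themselves in a shared way. Of the 18 slow genes, 16 were highest in RYGB replicate 3 and 17 were lowest in RYGB replicate 4, and among the sham libraries 9 were highest in replicate 1 and 10 were lowest in replicate 4. Leaving out each library in turn kept the median log2 difference between 2.10 (without RYGB replicate 3) and 2.86 (without RYGB replicate 4) and left 15 to 17 members with an unadjusted p-value under 0.05.

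**Figure D1:**
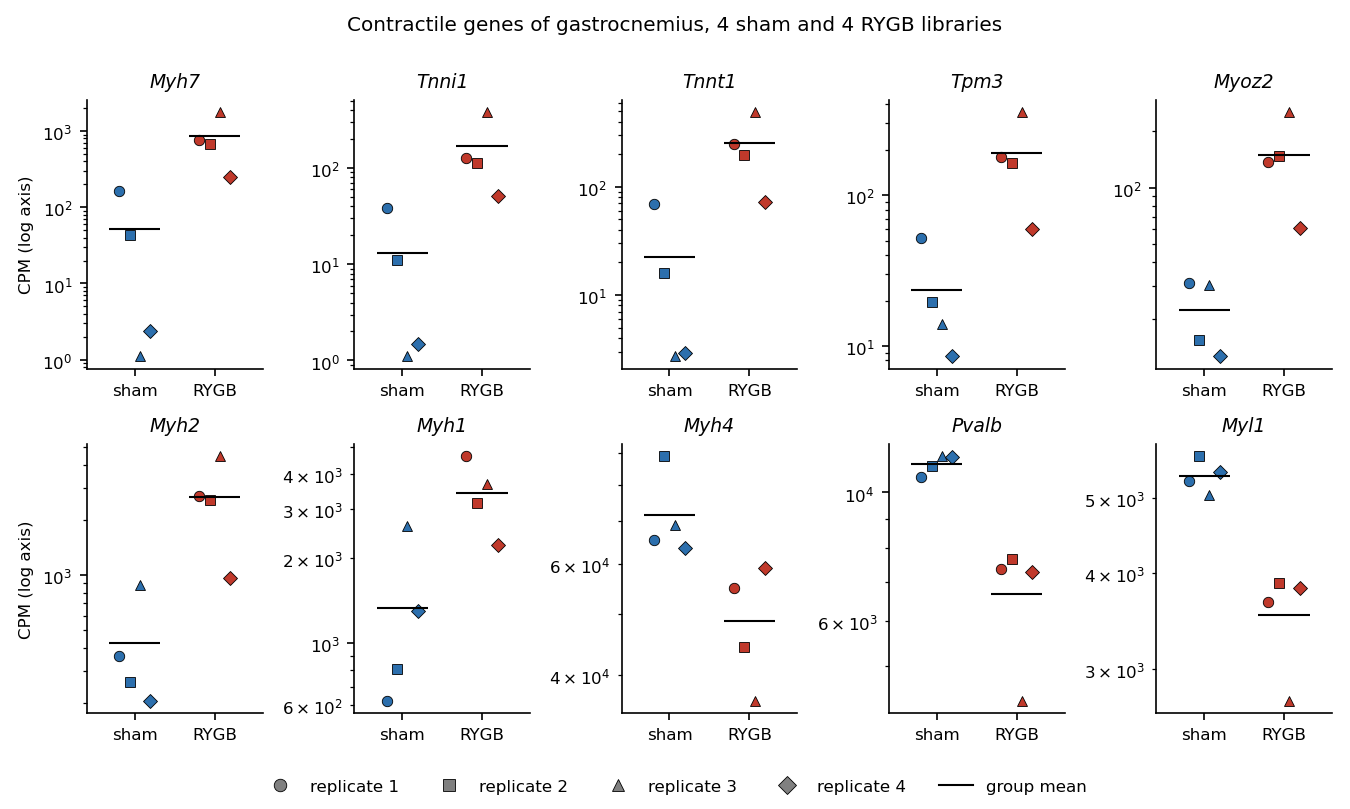
CPM of slow and fast contractile genes in each of the 4 RYGB and 4 sham libraries, on a log axis, with each point a library and each bar a group mean. The slow genes such as Myh7 and Tnni1 lie higher in every RYGB library than in every sham library, while Myh4, Pvalb and Myl1 lie lower in every RYGB library.

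The promoters of the slow genes were searched for the recognition sequences of regulators of slow and oxidative genes, because the members differed together. Estrogen-related receptors are nuclear receptors that drive oxidative genes, and MEF2 factors act downstream of calcium signals. The 250 bases before each RefSeq gene start (GRCm38.p6) were searched on both strands for TCAAGGTCA, the extended site of estrogen-related receptors, and for the MEF2 core, which is CTA, then 4 bases of any kind, then TAG. Of 32851 windows, 0.387% held the first motif and 3.2% the second. Among the 21 windows of 16 slow genes, 2 held TCAAGGTCA, those of Tpm3 and Myh7b. Those 2 stretches are shown because both genes were separate between the groups, with the motif in capitals, read 5′ to 3′ on the gene's strand (plus for both). The Tpm3 stretch is chr3:90072401-90072648, with the match 230 bases before the start, and the Myh7b stretch is chr2:155610993-155611211, with the match on the opposite strand 46 bases before the start. Starts are those of RefSeq, and each stretch is shown only up to the base before the GENCODE gene start, so the Myh7b stretch ends 6 bases after its match.
Myh7b: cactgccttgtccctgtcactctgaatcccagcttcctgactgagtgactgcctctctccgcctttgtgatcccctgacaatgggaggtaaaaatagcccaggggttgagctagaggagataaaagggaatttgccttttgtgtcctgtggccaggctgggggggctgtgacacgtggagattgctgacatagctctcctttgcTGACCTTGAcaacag
Tpm3: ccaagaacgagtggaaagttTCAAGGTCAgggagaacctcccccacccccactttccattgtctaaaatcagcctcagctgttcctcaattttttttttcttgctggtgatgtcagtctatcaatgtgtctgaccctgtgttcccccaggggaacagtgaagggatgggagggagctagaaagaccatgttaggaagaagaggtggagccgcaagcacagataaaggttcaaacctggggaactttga

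Tpm3, a tropomyosin of slow fibers, was at 179, 163, 357 and 59.7 CPM in the RYGB group and at 52.1, 19.4, 13.9 and 8.5 CPM in the sham group (log2 difference 3.01). Myh7b, a myosin gene related to Myh7, was at 10.5, 10.1, 23.6 and 3.0 CPM in the RYGB group and at 1.4, 2.2, 1.0 and 0.6 CPM in the sham group (2.25). The MEF2 core was found in 1 of the 21 slow gene windows, that of Myoz2, as CTATATATAG at chr3:123035011-123035020 (minus strand), 33 bases before the start, where the same letters also form a TATA-like run. Neither motif was found in the 40 windows of 36 fatty acid oxidation genes. A match is a run of letters and not a measured binding site, and a window without a match says nothing about the factor.

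The adult myosin heavy chain genes differed in their shares. To compare levels between these genes, CPM was divided by the combined length of all annotated exons of the gene, in kilobases. Each gene was then expressed as a percent of the sum of Myh7, Myh2, Myh1 and Myh4. The combined length was 8616, 7137, 6353 and 6016 bases in that order. It can exceed the length of a single transcript, so the shares depend on it. Myh7 made up 0.853%, 0.936%, 2.78% and 0.278% in the RYGB libraries and 0.172%, 0.034%, 0.00106% and 0.00258% in the sham libraries, with means of 1.21% ± 1.08 and 0.0523% ± 0.081 (SD, n = 4 each). Every RYGB library exceeded every sham library (two-sided exact permutation p = 0.0286, the smallest that 4 against 4 allows). Myh2 made up 4.43% ± 2.95 in the RYGB group and 0.497% ± 0.362 in the sham group, again without overlap (exact permutation p = 0.0286). Myh1 made up 6.05% ± 1.91 and 1.76% ± 1.2, with RYGB replicate 4 at 3.4% and sham replicate 3 at 3.41% (exact permutation p = 0.0571). Myh4, the IIb chain, remained the main transcript at 88.4%, 88.8%, 81.1% and 95.0% in the RYGB libraries and 98.5%, 98.9%, 95.6% and 97.8% in the sham libraries. The difference of its means was -9.37 points, and every RYGB library lay below every sham library (exact permutation p = 0.0286).

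**Figure D2:**
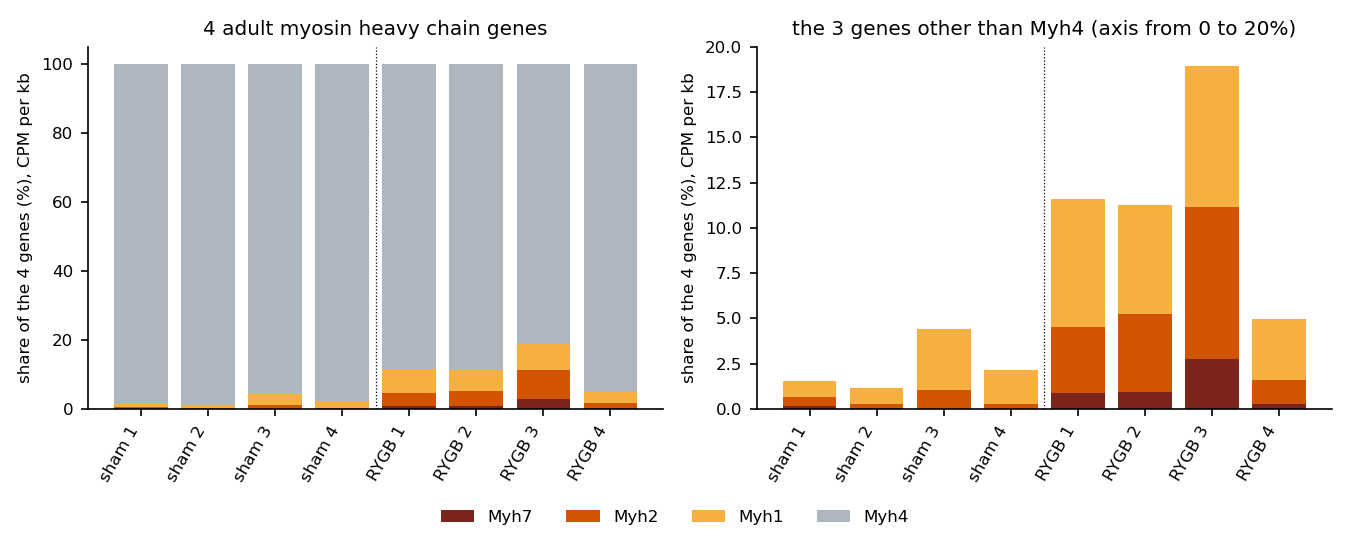
Share of each adult myosin heavy chain gene in the length-scaled sum of the 4 genes, in percent, for each RYGB and sham library. Myh4 holds 81.1% to 95.0% in the RYGB libraries and 95.6% to 98.9% in the sham libraries.

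The other fast fiber genes were lower or overlapped. Of 16 fast contractile genes, 2 were higher and 6 lower at an unadjusted p-value under 0.05, and 1 was separate above and 7 separate below the sham group, against 4.77% and 2.62% of all genes tested. The median log2 difference was -0.33, and it was -0.30 within lane 2 and -0.37 in the other lanes. With lane as a covariate, 2 members were lower at an unadjusted p-value under 0.05, and 5 were in a fit to lane 2 alone. The higher members were the chains of the less glycolytic fast fibers. Myh2 was at 2700, 2559, 4476 and 962 CPM in the RYGB group and at 359, 261, 877 and 206 CPM in the sham group, a log2 difference of 2.69 ± 0.52 (SE, limma adjusted p = 0.108). Myh1 had a log2 difference of 1.53 and overlapped, because sham replicate 3 lay above RYGB replicate 4. The genes of Myh3, Myh2, Myh1 and Myh4 lie next to each other on chromosome 11, from chr11:67078300-67102291 for the embryonic Myh3 to chr11:67238029-67260446 for Myh4, so neighbors within this cluster differed in opposite directions.

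Pvalb, parvalbumin, which speeds the relaxation of fast fibers by binding calcium, was at 7362, 7679, 4363 and 7293 CPM in the RYGB group and at 10621, 11106, 11563 and 11510 CPM in the sham group, a log2 difference of -0.78 ± 0.20 (SE, limma adjusted p = 0.135). Myoz3, the fast counterpart of Myoz2, was at 64.7, 68.0, 60.2 and 75.2 CPM against 99.8, 97.3, 91.0 and 92.2 CPM (log2 difference -0.50, limma adjusted p = 0.091). The remaining separate members were lower by similar amounts, namely Casq1, the fast calcium-store protein, at -0.62, the light chain Myl1 at -0.61, Tpm1 at -0.58, Myh4 at -0.57 and the fast troponin C Tnnc2 at -0.36. RYGB replicate 3, the library with the most slow RNA, was the lowest RYGB library for 14 of the 16 fast genes, and RYGB replicate 4 was the highest for 11.

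Genes of fatty acid oxidation were higher in the RYGB group. Of 42 members tested of 43 in the list, all had a higher mean in the RYGB group, 30 had an unadjusted p-value under 0.05 and 20 were separate, against 10.0% and 4.77% of all genes. The median log2 difference was 0.66, and the summed level was 5790 to 12410 CPM in the RYGB group and 3192 to 4873 CPM in the sham group. Within lane 2 the median was 0.61, with 41 of 42 higher, and in the other lanes 0.79, with 40 higher. Over all 11966 genes tested, 8586 were higher within lane 2 and 5603 in the other lanes. With lane as a covariate, 16 members had an unadjusted p-value under 0.05, and 37 had in a fit to lane 2 alone. Of all genes tested, 1134 of 11966 and 2489 of 11912 were higher at this level in those fits. Both fits take the difference from lane 2. Of the 42 genes, 40 were highest in RYGB replicate 3 and 28 were lowest in RYGB replicate 4, while 32 were highest among sham libraries in replicate 3, the library with the most adipocyte marker RNA. Leaving out each library in turn kept the median between 0.49 (without RYGB replicate 3) and 0.82 (without sham replicate 3).

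The separate members covered the path of a fatty acid from the droplet to the mitochondrion. Plin5, which ties lipid droplets to mitochondria, was at 24.5, 16.9, 61.4 and 20 CPM in the RYGB group and at 10.4, 4.3, 8.8 and 3.6 CPM in the sham group (log2 difference 1.95). Fabp3, the fatty acid carrier of muscle cytosol, was at 114, 99.7, 374 and 89.4 CPM against 46.3, 28.5, 53.8 and 22.8 CPM (1.94). Cpt2, which releases fatty acids from carnitine inside the mitochondrion, differed by 0.68. Acadl, which takes the first step of oxidation of long chains, was at 356, 385, 653 and 314 CPM in the RYGB group and at 166, 132, 221 and 130 CPM in the sham group, with a log2 difference of 1.37 ± 0.24 (SE, limma adjusted p = 0.102). The other acyl-CoA dehydrogenases Acadvl and Acadm differed by 0.93 and 0.88, the trifunctional protein subunits Hadhb and Hadha by 0.93 and 0.92, and the thiolase Acaa2 by 1.11. Ech1 and Acot2, which handle unsaturated chains and free acyl groups, differed by 1.32 and 1.17.

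Uptake and regulatory members were higher on average and overlapped. Lpl, which frees fatty acids from circulating lipoproteins, was at 896, 672, 1726 and 398 CPM in the RYGB group and at 250, 148, 610 and 163 CPM in the sham group (log2 difference 1.70), where sham replicate 3 exceeded RYGB replicate 4. Pdk4, the kinase that spares glucose by holding back pyruvate oxidation, was at 327, 540, 1907 and 1106 CPM against 383, 272, 251 and 326 CPM (1.36). Here RYGB replicate 1 did not exceed sham replicate 1. The fatty acid transporter Cd36 differed by 0.97, the entry enzyme Cpt1b by 0.61 and the coactivator Ppargc1a by 0.30. The largest difference of the list belonged to Bdh1, the mitochondrial enzyme that oxidizes the ketone body beta-hydroxybutyrate, at 44.9, 41, 88.9 and 25.8 CPM in the RYGB group and 15.6, 4.9, 14.0 and 4.6 CPM in the sham group (log2 difference 2.29 ± 0.44, SE, limma adjusted p = 0.11).

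**Figure D3:**
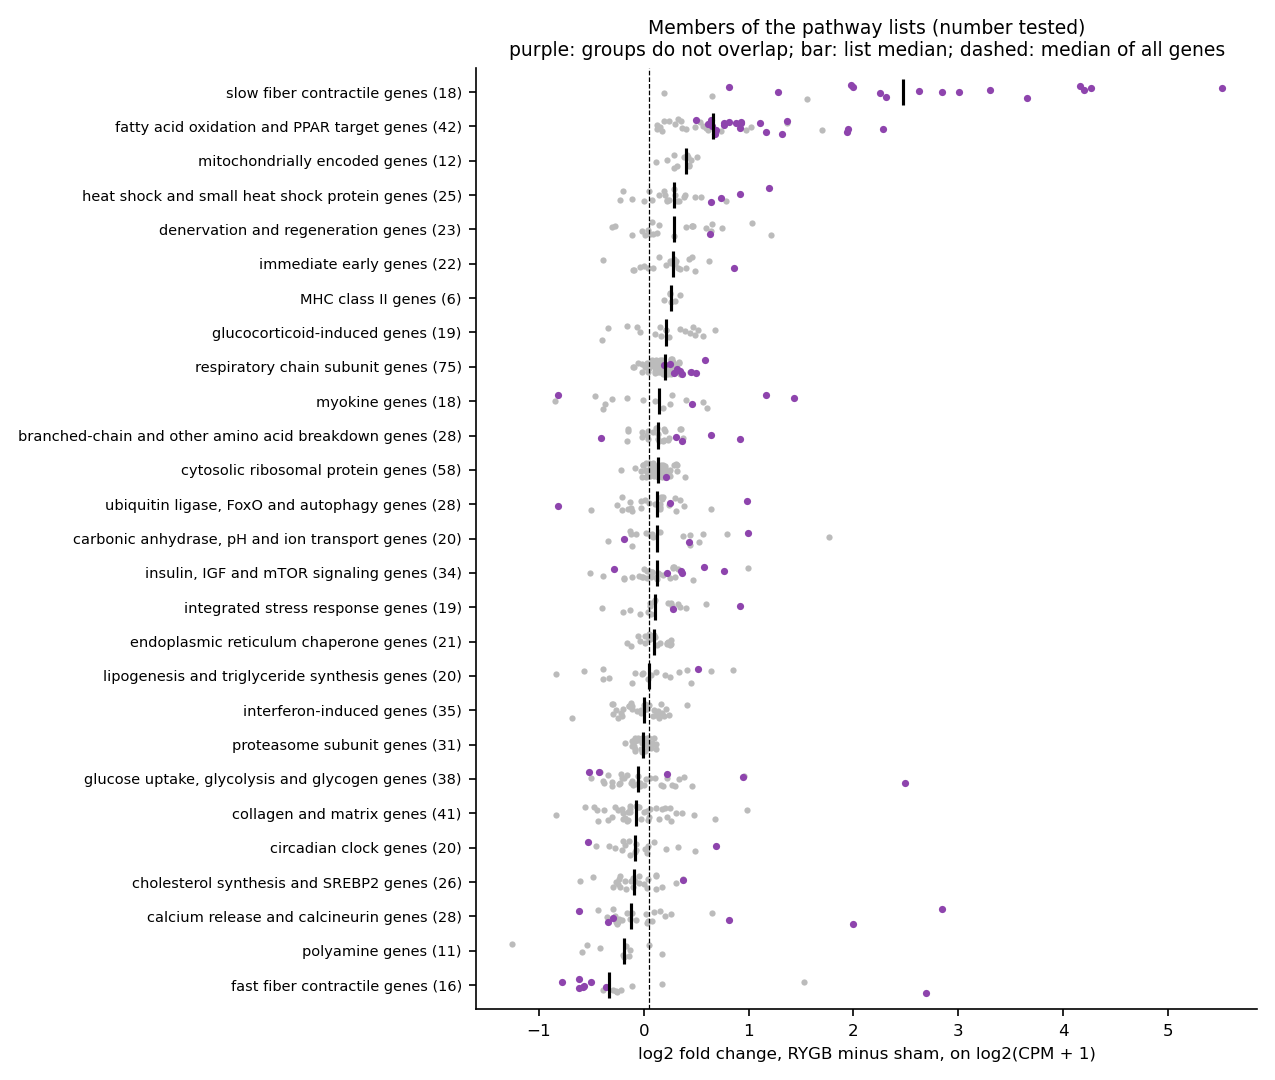
Log2 difference, RYGB minus sham, on log2(CPM + 1), for the members of each pathway list, with the number tested in parentheses, purple for separate members, a bar at the list median and a dashed line at the median of all genes. The slow contractile list has a median of 2.47 and the fatty acid oxidation list one of 0.66.

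The respiratory chain genes had a smaller median difference than those of fatty acid oxidation. Of 75 nuclear-encoded subunit genes tested, 33 had an unadjusted p-value under 0.05 with the RYGB group higher and none with it lower, and 9 were separate above, against 10.0% and 4.77% of all genes tested. The median log2 difference was 0.21. The 9 separate members were Ndufv1 (0.50), Ndufa10 (0.35), Ndufa9 (0.29) and Ndufs7 (0.20) of complex I, Sdhb (0.59), Sdhc (0.45) and Sdha (0.32) of complex II, and Atp5g1 (0.37) and Atp5d (0.25) of the ATP synthase, and Atp5a1 of the ATP synthase (0.32) overlapped. RYGB replicate 4 was the lowest RYGB library for 68 of the 75 genes. The count depended on the scaling and on single libraries, since 13 members had an unadjusted p-value under 0.05 with median-ratio scaling, 12 when RYGB replicate 1 was dropped, 15 when either replicate 2 was dropped, 18 when RYGB replicate 3 was dropped, 21 when sham replicate 4 was dropped and 50 when RYGB replicate 4 was dropped. Without RYGB replicate 4, 1564 of all 11977 genes tested were higher at this level. The median was 0.32 within lane 2 and 0.11 in the other lanes. Of 12 mitochondrially encoded genes, which include both ribosomal RNAs, 3 were higher at an unadjusted p-value under 0.05 and none was separate (median 0.40). This count became 0 with median-ratio scaling or when RYGB replicate 1 or 2 or sham replicate 2 or 3 was dropped, 1 when RYGB replicate 3 was dropped, 5 when sham replicate 1 was dropped and 9 when RYGB replicate 4 was dropped.

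Enzymes beside the respiratory chain had larger differences. Idh2, the mitochondrial NADP-dependent isocitrate dehydrogenase, was at 476, 457, 829 and 252 CPM in the RYGB group and at 145, 79.1, 128 and 66.7 CPM in the sham group (log2 difference 2.20, limma adjusted p = 0.0875). Ldhb, the lactate dehydrogenase subunit of oxidative fibers and heart, was at 166, 155, 254 and 71.3 CPM against 37.9, 18.7, 39.5 and 14.5 CPM (2.49, limma adjusted p = 0.091). Mb, myoglobin, which stores oxygen in red fibers, was at 2530, 1831, 2589 and 870 CPM against 630, 306, 935 and 476 CPM (1.73), and RYGB replicate 4 overlapped with sham replicate 3. Idh2 and Mb are in no pathway list here and were chosen after their values were seen.

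Regulators of oxidative and slow programs were looked at after the values were seen. Esrrb, an estrogen-related receptor, was at 11.2, 10.7, 19.0 and 5.6 CPM in the RYGB group and at 2.9, 1.5, 3.1 and 1.5 CPM in the sham group (log2 difference 1.89, limma adjusted p = 0.091). Esrrg, its relative in oxidative muscle, was at 40.8, 45.3, 80.0 and 25.1 CPM against 18.0, 9.4, 18.1 and 10.9 CPM (1.63, limma adjusted p = 0.112). Prox1, a homeobox factor of slow fibers, was at 6.4, 4.0, 13.3 and 2.9 CPM against 2.0, 1.3, 1.7 and 0.9 CPM (1.47, limma adjusted p = 0.122). All 3 were separate.

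Glucose handling showed no common direction. Of all genes tested, 10.0% were higher and 4.56% lower at an unadjusted p-value under 0.05, and 4.77% were separate above and 2.62% below. Of 38 genes of glucose uptake, glycolysis and glycogen, 7 were higher and 5 lower at an unadjusted p-value under 0.05, and the median log2 difference was -0.06. The lower count became 13 when RYGB replicate 4 was dropped, 8 when sham replicate 3 was dropped and 3 when sham replicate 1 was dropped, and the higher count became 3 on dropping RYGB replicate 2 and 4 on dropping sham replicate 2. Slc2a4, the insulin-responsive glucose transporter, ranged from 425 to 535 CPM in the RYGB group and from 448 to 544 CPM in the sham group. The separate members were Ldhb above, the glycogen branching enzyme Gbe1 (0.95) and the pyruvate dehydrogenase kinase Pdk2 (0.22) above, and Pfkfb4 (-0.52) and the phosphorylase kinase subunit Phkg1 (-0.42) below, while Pkm (-0.42) overlapped. Of 34 insulin, IGF and mTOR genes, 8 were higher and 3 lower at an unadjusted p-value under 0.05 (median 0.12), and the higher count was 5 without RYGB replicate 3 or sham replicate 4. The 5 separate members above were Tbc1d4, which controls the release of glucose transporters to the surface, at 0.76, Sesn1 at 0.57, Akt1 and Mtor at 0.36 each and Tsc2 at 0.22, and Rps6kb1 was separate below at -0.28. Igf1 (-0.39) and Igfbp5 (-0.51) overlapped.

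Genes tied to muscle mass differed singly. Mstn, myostatin, a secreted brake on muscle growth, was at 57.4, 58.2, 32.1 and 67.7 CPM in the RYGB group and at 115, 81.3, 76.5 and 102 CPM in the sham group, a log2 difference of -0.82 ± 0.22 (SE, limma adjusted p = 0.151), and the groups were separate. The ubiquitin ligases of wasting muscle overlapped, with Fbxo32 at 253 to 386 CPM in the RYGB group and 127 to 547 CPM in the sham group, and Trim63 at 132 to 212 CPM and 157 to 251 CPM. Gabarapl1, an autophagosome protein, was at 67.8, 70.0, 123 and 56.4 CPM in the RYGB group and at 42.5, 32.1, 37.1 and 40.4 CPM in the sham group (log2 difference 0.99). Of the 28 genes in the ubiquitin ligase, FoxO and autophagy list, 5 were higher and 1 lower at an unadjusted p-value under 0.05. The shares of all genes tested were 10.0% and 4.56%. The 31 proteasome subunits held none in either direction (median -0.00531, with 0.09 within lane 2 and -0.08 in the other lanes).

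Among 18 myokine genes, 4 were higher and 4 lower at an unadjusted p-value under 0.05, against 10.0% and 4.56% of all genes tested. Only 2 myokine genes were lower when RYGB replicate 3 or sham replicate 1 or 3 was dropped. The median of the list was 0.37 within lane 2 and -0.03 in the other lanes. Fndc5, the precursor of irisin, was at 98, 87.9, 119 and 40.9 CPM in the RYGB group and at 37.1, 21.7, 33.2 and 27.3 CPM in the sham group (log2 difference 1.43). Il15 was at 8.7, 9.2, 12.6 and 5.4 CPM against 3.7, 2.9, 4.1 and 2.6 CPM (1.17). Both were separate, whereas Ostn, musclin, at -0.84 overlapped. Of 11 polyamine genes, 3 were lower at an unadjusted p-value under 0.05 and none was separate. Amd1, which supplies the aminopropyl donor of polyamine synthesis, was at 153, 167, 72.1 and 164 CPM in the RYGB group and at 493, 332, 134 and 452 CPM in the sham group (-1.26 ± 0.41, SE), where sham replicate 3 lay below 3 of the RYGB libraries. Odc1 and Sms differed by -0.58 and -0.41.

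Protein-folding genes were described separately for the cytosol and the endoplasmic reticulum. Of 25 heat shock genes, 8 were higher at an unadjusted p-value under 0.05, 4 were separate above and the median log2 difference was 0.29, against 10.0% and 4.77% of all genes tested. Of 21 endoplasmic reticulum chaperones none had an unadjusted p-value under 0.05 (median 0.10), but 9 were higher when sham replicate 3 was dropped (median 0.21), 2 when RYGB replicate 4 was dropped and 5 with lane as a covariate. Their median was 0.25 within lane 2 and -0.07 in the other lanes. Hspb7, a small heat shock protein of muscle, was at 533, 603, 910 and 339 CPM in the RYGB group and at 146, 293, 288 and 292 CPM in the sham group (log2 difference 1.19). Cryab, alpha-B crystallin, which guards desmin filaments, differed by 0.92, Hspa1b by 0.74 and Bag3 by 0.64. Des, desmin itself, was tightly grouped at 3844, 3932, 3671 and 3679 CPM in the RYGB group and 2598, 2761, 2672 and 2800 CPM in the sham group (0.48).

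Amino acid breakdown, calcium and ion transport lists had mixed members. Over all genes tested, 10.0% were higher and 4.56% lower at an unadjusted p-value under 0.05. Of 28 amino acid breakdown genes, 6 were higher and 1 lower at an unadjusted p-value under 0.05, with 11 higher without RYGB replicate 4 and 10 without sham replicate 3. The aspartate aminotransferase Got1 was at 417, 388, 487 and 322 CPM in the RYGB group and at 208, 191, 302 and 165 CPM in the sham group (log2 difference 0.92), and its mitochondrial counterpart Got2 differed by 0.64. Of 28 calcium release and calcineurin genes, 3 were higher, namely Atp2a2, Casq2 and Pln, which are also in the slow list, and 7 were lower, among them Casq1, Srl (-0.34) and Stac3 (-0.29). The lower count was 3 without RYGB replicate 1 or 3, 4 without sham replicate 2 or 4 and 1 with lane as a covariate. Of 20 carbonic anhydrase and ion transport genes, 8 were higher and 2 lower, and 5 were higher without sham replicate 2 or 4. Car2, a cytosolic carbonic anhydrase, was at 15.5, 17.9, 19.2 and 14.0 CPM against 7.9, 10.3, 6.8 and 6.7 CPM (0.99, limma adjusted p = 0.0817), and the chloride channel Clcn1 was separate below at -0.19.

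For the next lists, the shares of all genes tested were 10.0% higher and 4.56% lower at an unadjusted p-value under 0.05. Those shares are for all libraries. Without sham replicate 3, 2282 of 11928 genes were higher, and without RYGB replicate 4, 1564 of 11977. Denervation and regeneration genes had 6 of 23 members higher at an unadjusted p-value under 0.05, or 3 without RYGB replicate 3. Of these genes, Myog was separate at 0.63, and Ankrd1 (1.04) and Myh3 (1.21) overlapped. Among the clock genes, Bhlhe41 was separate below (-0.54) and Per1 (0.49) overlapped. Of 19 integrated stress response genes, 3 were higher, with Atf5 (0.92) and Shmt2 (0.28) separate. The hormones Fgf21 and Gdf15 were not in the table. Of 19 glucocorticoid-induced genes 3 were higher and 1 lower, with 5 higher when sham replicate 1 or 3 was dropped, 1 higher when sham replicate 4 was dropped and 0 to 2 lower as single libraries were dropped. Of 22 immediate early genes 5 were higher, a count that ranged from 3 (without RYGB replicate 1 or 2 or sham replicate 1 or 4) to 11 (without RYGB replicate 4) and was 8 without sham replicate 3. Of 58 ribosomal protein genes 6 were higher, with a median of 0.14, and this count became 18 when sham replicate 3 was left out, 2 when sham replicate 1 was left out and 3 when either replicate 4 was left out. Of 35 interferon-induced genes 1 was lower (median -0.00137). When sham replicate 3 was dropped, 5 were higher (median 0.17, against 0.109 over all genes tested). Of 6 MHC class II genes none had an unadjusted p-value under 0.05 (median 0.26), and 5 were higher with lane as a covariate (median 0.67). Of 20 lipogenesis genes 1 was higher, Acacb, whose product makes the malonyl-CoA that restrains fatty acid entry into mitochondria (0.52, separate). That count was 7 with lane as a covariate and 3 when sham replicate 3 was dropped. Of 26 cholesterol synthesis genes 1 was higher and 2 were lower, and 5 were lower when RYGB replicate 1 was dropped. The medians of both lists changed direction between lanes, at 0.53 within lane 2 and -0.40 in the other lanes for lipogenesis and at 0.26 and -0.26 for cholesterol synthesis. So did those of the integrated stress response (0.46 and -0.21), MHC class II (0.67 and -0.16) and interferon-induced genes (0.02 and -0.04).

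The 5 genes that shared the lowest adjusted p-value were in none of the lists above. Spon1, a secreted matrix protein, was at 4.7, 5.0, 4.0 and 5.9 CPM in the RYGB group and at 9.6, 12.3, 12.6 and 13.1 CPM in the sham group (log2 difference -1.13 ± 0.13, SE, limma adjusted p = 0.0547). St6galnac4, a sialyltransferase, was at 24.0, 23.9, 27.2 and 24.0 CPM against 14.9, 16.0, 15.9 and 15.5 CPM (0.64 ± 0.08, limma adjusted p = 0.0547). Cited2, a transcriptional coregulator, was at 62.9, 55.5, 53.5 and 55.3 CPM against 35.6, 37.9, 37.1 and 38.8 CPM (0.59 ± 0.08, limma adjusted p = 0.0547). The other 2 at this value were 6330403L08Rik (-0.61), a gene without a known name, and the mitochondrial transfer RNA mt-Ti, at 10.7, 14.2, 15.6 and 7.5 CPM against 2.9, 1.5, 2.8 and 2.0 CPM (1.95). The library kit selects polyadenylated RNA, and transfer RNAs are not what it is made to capture. These genes were chosen after their values were seen.

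With the adjusted p-value taken under 0.1 in place of 0.05, a choice made after seeing the data, 17 genes were higher (0.142% of those tested) and 4 lower (0.0334%). The higher genes included Plin3, a lipid droplet coat protein, at 26.7, 25.8, 27.6 and 19.6 CPM in the RYGB group and 13.3, 8.8, 12.1 and 11.7 CPM in the sham group (log2 difference 1.06, limma adjusted p = 0.0621). They also included the protein tyrosine phosphatase Ptp4a3 at 578, 801, 900 and 966 CPM against 483, 347, 346 and 406 CPM (1.02), the actin filament regulator Lmod2 (1.91), the homeobox gene Barx2 (2.12), Dach2 (2.19), Lrrc52 (1.61) and mt-Tm (1.27). Among the lower genes were Cmbl, a hydrolase, at 37.0, 41.3, 26.3 and 43.1 CPM against 69.6, 63.5, 78.2 and 73.9 CPM (-0.95, limma adjusted p = 0.0817), and Cpeb1 (-0.81). Ptp4a3 was highest in RYGB replicate 4, which was the lowest RYGB library for the slow genes.

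**Figure D4:**
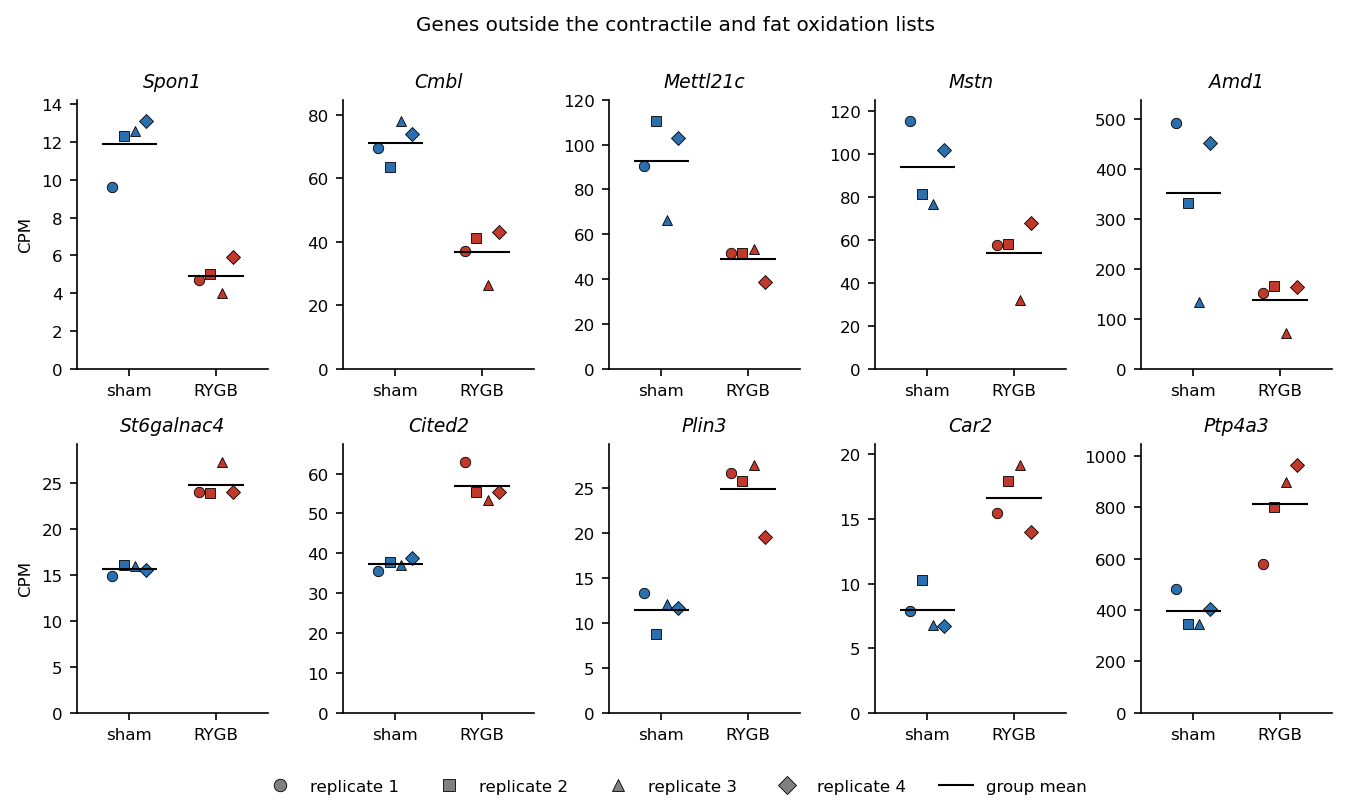
CPM, on axes from 0, of 10 genes outside the contractile and fatty acid oxidation lists in each RYGB and sham library, with points as libraries and bars as group means. Spon1 and Cmbl lie below the sham range in every RYGB library and St6galnac4, Cited2 and Plin3 above it, while Amd1 overlaps.

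The largest separate decreases were in genes with no shared list. They were taken among genes with an unadjusted p-value under 0.05, and predicted gene models were left out. Six2, a homeobox factor, was at 8.1, 6.5, 1.0 and 7.6 CPM in the RYGB group and at 11.5, 18.6, 11.7 and 27.8 CPM in the sham group (log2 difference -1.56). Cdk19, a kinase of the Mediator complex, was at 66.9, 68.4, 43.1 and 72.1 CPM against 166, 133, 82.2 and 143 CPM (-1.04). Mettl21c, a muscle lysine methyltransferase, was at 51.5, 51.8, 53.2 and 38.5 CPM against 90.5, 111, 66.3 and 103 CPM (-0.90). The rest of the 12 were Nrep (-1.36), Spon1, Shc2 (-1.07), the axon guidance ligand Sema3a (-1.01), Cmbl, Prkag3, the AMPK subunit of glycolytic fibers (-0.95), Cbr2 (-0.88), Gamt, which makes creatine (-0.87), and the transferrin receptor Tfrc (-0.87). Of the 12 largest separate increases, 11 are contractile or oxidative genes described above, and the other was Cyfip2, an actin regulator, at 20.8, 18.6, 58.9 and 8.1 CPM against 5.0, 2.2, 1.6 and 0.5 CPM (2.90).

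Markers of several other cell types in muscle changed direction between the lanes. The medians of the 16 macrophage markers tested of 20 were 0.76 within lane 2 and -0.32 in the other lanes, those of the 12 adipocyte markers tested of 15 were 1.16 and -0.93, and those of the 12 fibroblast markers 0.39 and -0.41. Over all lanes 0, 1 and 1 of these had an unadjusted p-value under 0.05 with the RYGB group higher. The share of all genes tested was 10.0%. The summed macrophage markers ranged from 146 to 261 CPM in the RYGB group and from 87 to 291 CPM in the sham group. The 41 collagen and matrix genes behaved likewise, with 40 higher within lane 2 (median 0.44) and 8 higher in the other lanes (median -0.69). Over all 11966 genes tested, 8586 were higher within lane 2 (median 0.12) and 5603 in the other lanes (median -0.02). The part of these cell types in the results above was not tested. Without sham replicate 3, 4 macrophage and 5 adipocyte markers were higher at an unadjusted p-value under 0.05. Of all genes tested, 2282 of 11928 were higher in that fit. The count of collagen and matrix genes, 3 higher and 1 lower over all lanes, ranged from 0 to 5 higher and 0 to 6 lower as single libraries were dropped, and 8 were higher with lane as a covariate.

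**Figure D5:**
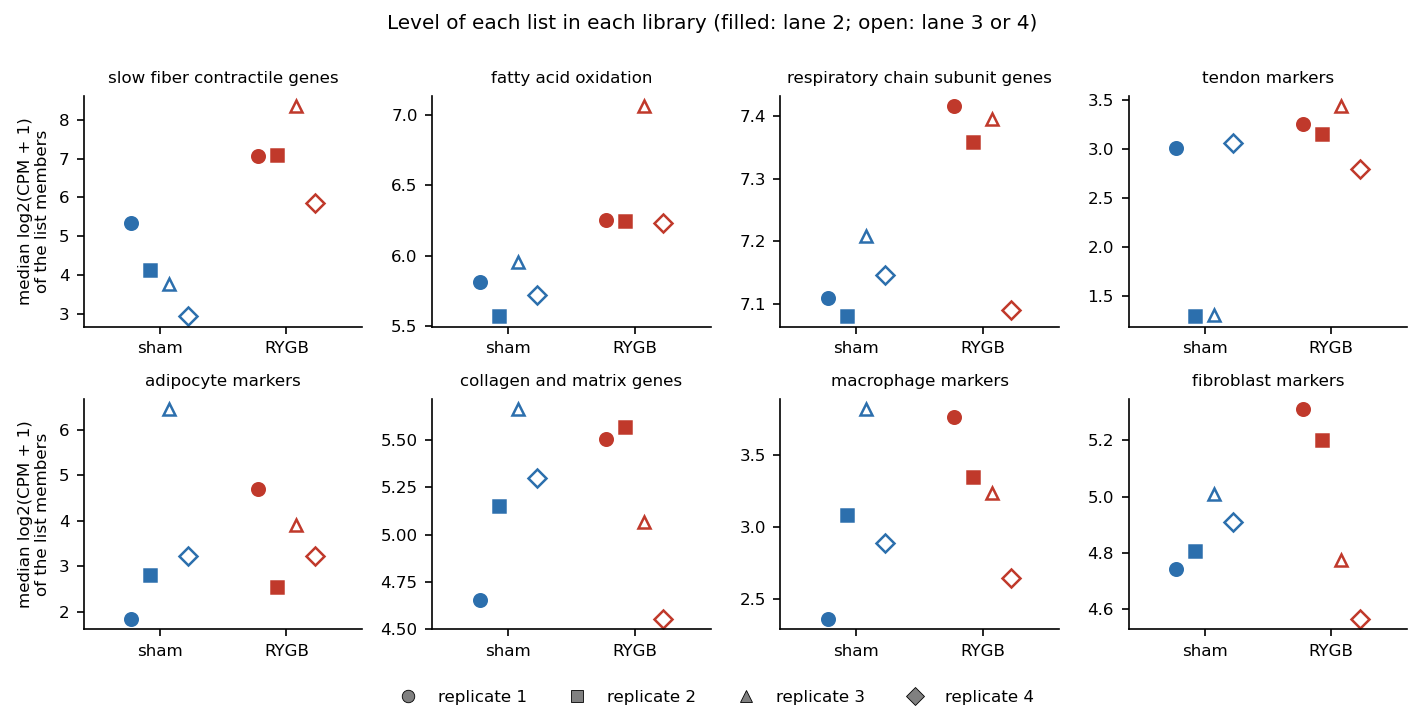
Median log2(CPM + 1) over the members of 8 lists in each library, with filled symbols for lane 2 and open symbols for lanes 3 and 4. The slow contractile list is higher in every RYGB library than in every sham library, while the adipocyte and collagen lists change direction between lanes.

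Tendon, vessel and nerve markers were also measured. Over all genes tested, 10.0% were higher at an unadjusted p-value under 0.05, and 4.77% were separate above. All 10 tendon markers had a higher mean in the RYGB group (median log2 difference 0.90), 6 had an unadjusted p-value under 0.05, and their summed level was 302 to 679 CPM in the RYGB group and 78.9 to 342 CPM in the sham group. Thbs4 was at 143, 119, 226 and 107 CPM against 94.2, 36.7, 36.3 and 106.6 CPM (1.22), and Fmod at 204, 160, 329 and 150 CPM against 184, 37.2, 29.5 and 181 CPM (1.35). Sham replicates 1 and 4 were near the RYGB level for both, and the count of 6 became 1 to 3 without RYGB replicate 1, 2 or 3 or sham replicate 2 or 3, 9 without sham replicate 4 and 0 with lane as a covariate. The 12 endothelial markers summed to 478 to 795 CPM in the RYGB group and 409 to 558 CPM in the sham group, with all 12 higher (median 0.30), 6 at an unadjusted p-value under 0.05 (3 without sham replicate 2 or 4) and none separate. The 10 smooth muscle and pericyte markers had 5 higher (8 without RYGB replicate 4), with Myh11 (0.70) and Cnn1 (0.84) separate. The 7 Schwann cell markers had no member with an unadjusted p-value under 0.05, but 3 were higher when RYGB replicate 4 was dropped and 5 with lane as a covariate. Their median was 1.21 within lane 2 and -0.37 in the other lanes. Markers of blood cells and of other organs were mostly not in the table, with 2 of 14 neutrophil, 1 of 14 B cell, 1 of 14 T cell, 7 of 12 erythroid, 3 of 10 keratinocyte and 1 of 9 hepatocyte markers in it.

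The same comparison in liver and subcutaneous white fat was set beside muscle without a test between tissues. Bdh1 was higher in all 3, with log2 differences of 2.29 in muscle, 0.68 in liver (limma adjusted p = 0.0381) and 1.94 in fat (limma adjusted p = 0.00627). Plin3 differed by 1.06, 0.57 (limma adjusted p = 0.0117) and -0.15, Ptp4a3 by 1.02, 0.45 and 1.29 (limma adjusted p = 0.00344 in fat), and Lpl by 1.70, 1.56 (limma adjusted p = 0.00185 in liver) and -0.30. The fatty acid oxidation list had a median of 0.32 in liver, where 8 members were called higher, and of -0.09 in fat. Cited2 differed by 0.59 in muscle, -0.55 in liver and -0.61 in fat.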

How the data were processed

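Poly(A) RNA libraries (stranded kit) of gastrocnemius were grouped by surgery from the labels. CPM, relative to all counts of a library and rounded to 0.1, were deposited by the authors; per the labels, counting used HTSeq on GRCm38, and no version or aligner is given in the sources used here. CPM was read from the values, so depth is unknown, and no interval was computed. In muscle, 408 repeat lines were counted once. In liver, 12 lines whose last value was a deposited score of another kind were left out, as were the villi tables.

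Genes that averaged 1 CPM or more were tested on log2(CPM + 1) with limma 3.58.1 (empirical Bayes with a trend, R 4.3.3), two-sided, and adjusted by Benjamini-Hochberg over all of them, so fold changes of low genes are understated. Other steps used numpy 2.4.6, pandas 2.3.3 and matplotlib 3.10.9 under Python 3.11.15. Lists were described by counts and medians, and named genes were key list members, separate list members, and the 12 largest separate differences in each direction. Separate genes also needed an unadjusted p-value under 0.05, and predicted gene models were left out of the 12 largest. Gene lists and this rule were chosen with earlier results of these data known. A gene is named only where the text needs it, and 1 is not reported here. Positions follow GENCODE M21. The model was tested on simulated data.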

Additional observations from a re-analysis of the deposited data

Results flagged for a closer look

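In 18 of 258 groups of 4 libraries, 1 library lay far from the other libraries of its group, measured as its gap to the nearest of them divided by the range of the group. Chance gives such a gap in about 1 in 20 independent groups, and 6.98% were seen. The genes were partly chosen by their values and many varied together across libraries, so these rates cannot be compared. RYGB replicate 3 stood apart for Pvalb (0.909), Amd1 (0.894), Hadhb (0.889), Mtor (0.884), Six2 (0.872), Ech1 (0.865), Cdk19 (0.854), Myl1 (0.836), Fabp3 (0.832) and St6galnac4 (0.968). RYGB replicate 4 stood apart for Tnmd (0.944), Barx2 (0.921), Mettl21c (0.899), Pln (0.843) and Odc1 (0.841). Among the sham libraries, replicate 1 stood apart for Hspb7 (0.973) and Nrep (0.859), and replicate 3 for Actn2 (0.881).

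Several genes were separate in opposite directions in muscle and in another tissue, a difference that was not tested because the tables were normalized separately. Higher in muscle and lower in fat were Atp2a2 (2.84 and -0.30, a difference of 3.14), Apod (0.92 and -1.11, 2.02), Gabarapl1 (0.99 and -0.78, 1.76), Hspa1b (0.74 and -0.77, 1.51), Bag3 (0.64 and -0.68, 1.32) and Tsc2 (0.22 and -0.12, 0.345). Lower in muscle and higher in fat were Sema3a (-1.01 and 1.65, -2.66) and Tfrc (-0.87 and 0.52, -1.39). Lower in muscle and higher in liver was Tpm1 (-0.58 and 0.81, -1.38).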

How the results depend on the processing

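No gene was called under pseudocounts of 0.1 or 0.5, without a minimum CPM or with lane as a covariate. The count was 3 with a mean of at least 10 CPM, 2 with median-ratio scaling, 3 with quantile normalization, 6 with robust empirical Bayes, 427 with quality weights per library, 206 within lane 2 and, by a choice made after seeing the data, 21 at an adjusted p-value under 0.1. Leaving out 1 library at a time gave 0 to 210 genes, with 57 when sham replicate 3 was dropped, 210 when RYGB replicate 4 was dropped and 0 for each of the others. The cause was not tested. With the replicate number as a block, the replicate block gave 184 genes, but same-numbered libraries share only a number, with correlations of their deviations of -0.271, 0.17, 0.222 and 0.0512. For 129 of the genes named here, 2432 values over 19 settings were compared. None reversed, and 270 passed the call threshold that the reported values did not. Where the groups were separate, dropping libraries or changing the pseudocount could not reverse a gene, so for such genes that result was fixed in advance. No setting used lanes 3 and 4 alone. Not every named gene was included (Myl6b was not), so the comparison says nothing about the others. Rounding to 0.1 CPM limits genes under about 1 CPM.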
